A study of Mus musculus with 6 samples.

Results

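Cells take up cholesterol carried in lipoproteins and free it inside the lysosome, and 7 genes of that route were followed here in mouse erythroid cells given extra cholesterol. The genes were Mylip, Lrp8, Vldlr, Scarb1, Lipa, Npc1 and Npc2. They were chosen by gene symbol for what their proteins do, and each matched 1 of the 17463 genes in the count table and in the table of normalised levels. Erythroblasts lacking the late erythroid surface protein TER119 were taken from the fetal liver of C57BL/6J mice at embryonic day 14.5 and cultured for 30 h in medium with erythropoietin. The 3 control samples received no added cholesterol and are labelled untreated, and the 3 cholesterol samples received 40 µM cholesterol. TER119+ cells were then collected, so every sample is a mixed population of maturing erythroblasts, and fewer cells of a type cannot be told apart from less RNA per cell. Each group holds samples numbered 1 to 3, and what the numbers stand for is not given in the sources used here. Summed counts lay between 19826797 and 20061702 per sample, so that 3 counts correspond to about 0.15 CPM, a gene's count relative to its scaled library total. The 10 erythroid marker genes together took 84400 to 107000 CPM in the control samples and 72900 to 102000 CPM in the cholesterol samples, which fits the labelled cell type. All 10 had a log2 fold change below 0 on condition alone, and 2 were called lower once the sample numbers entered the model.

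Receptors of the LDL receptor family bind lipoproteins at the cell surface and carry them into endosomes. Lysosomal acid lipase then cuts the cholesteryl esters, the small luminal protein NPC2 picks up the freed cholesterol and the membrane protein NPC1 passes it out of the lysosome. MYLIP, also called IDOL, is a ubiquitin ligase that sends receptors of this family to degradation, and its gene is a known target of the oxysterol-activated LXR receptors. SCARB1 is the scavenger receptor for high-density lipoprotein, which gives up its cholesteryl esters without whole-particle uptake. LRP8 and VLDLR are both receptors for the signalling protein reelin and for lipoproteins.

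The stretches upstream of Mylip and Npc2 are shown because these are the members with the largest difference in each direction. The Mylip window comprises the 250 bases before its RefSeq start, at chr13:45389492-45389741 on the plus strand of GRCm38.p6. The Npc2 stretch comprises the 98 bases between the annotated first exons of Npc2 and of its divergent neighbour Isca2, at chr12:84773153-84773250 of the same build, read on the minus strand. Neither overlaps an exon in the GENCODE vM21 annotation. Capitals mark the GC box GGGCGG on either strand.
Mylip: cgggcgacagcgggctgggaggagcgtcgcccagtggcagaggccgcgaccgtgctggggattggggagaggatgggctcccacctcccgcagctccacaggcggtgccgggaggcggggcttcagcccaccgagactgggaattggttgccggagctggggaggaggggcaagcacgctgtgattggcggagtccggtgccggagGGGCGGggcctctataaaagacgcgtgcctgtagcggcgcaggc
Npc2: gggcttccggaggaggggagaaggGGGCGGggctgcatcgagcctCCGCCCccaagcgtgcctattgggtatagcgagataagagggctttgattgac

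The Mylip window held 1 GC box, 44 bases before the start, and the Npc2 stretch held 2. Over the full 250 bases, GC content was 71.2% for Mylip and 62% for Npc2, against a median of 52.4% for all 32851 RefSeq windows of this length, of which 32.7% hold a GC box. Neither window held the other elements searched on both strands. These were the sterol response element core TCACCCCAC, present in 0.496% of all windows, the CLEAR core TCACGTGA of lysosomal genes, in 0.785%, and the E-box CACGTG that lies inside it, in 6.02%. The nuclear receptor half-site AGGTCA, in 14% of windows, and its direct repeat with a 4-base spacer, in 0.0152%, were also not found in either. The Lipa window and both Vldlr windows held none of these elements other than a GC box in 1 of the Vldlr windows, which lies inside that gene. The 3 Lrp8 windows in the reference table lie inside the annotated gene, and 1 of them held the half-site, 229 bases before its start. Scarb1 and Npc1 have no window there.

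Without regard to the sample numbers, none of the 6 members with enough counts for a test passed an adjusted p of 0.05 in edgeR's quasi-likelihood test, while 2 of them, Lrp8 and Npc2, had an unadjusted p under 0.05. That model called 1 of 11277 genes higher with cholesterol (0.00887%) and 0 lower (0%), while at an unadjusted p under 0.05 there were 81 higher and 216 lower. DESeq2 without the numbers called 0.0266% of genes higher and 0.248% lower, and of the members it called Npc2 alone. Same-numbered samples deviated together across genes, least clearly for number 2. Once the number entered the model as a replicate block, edgeR called 4 of the 6 members. Mylip rose, and Npc2, Lrp8 and Scarb1 fell, against a background of 1.65% of all genes called higher and 5.2% called lower in that paired model. Lipa and Npc1 were not called by any of these fits, and Vldlr was too low to be tested.

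**Figure D1:**
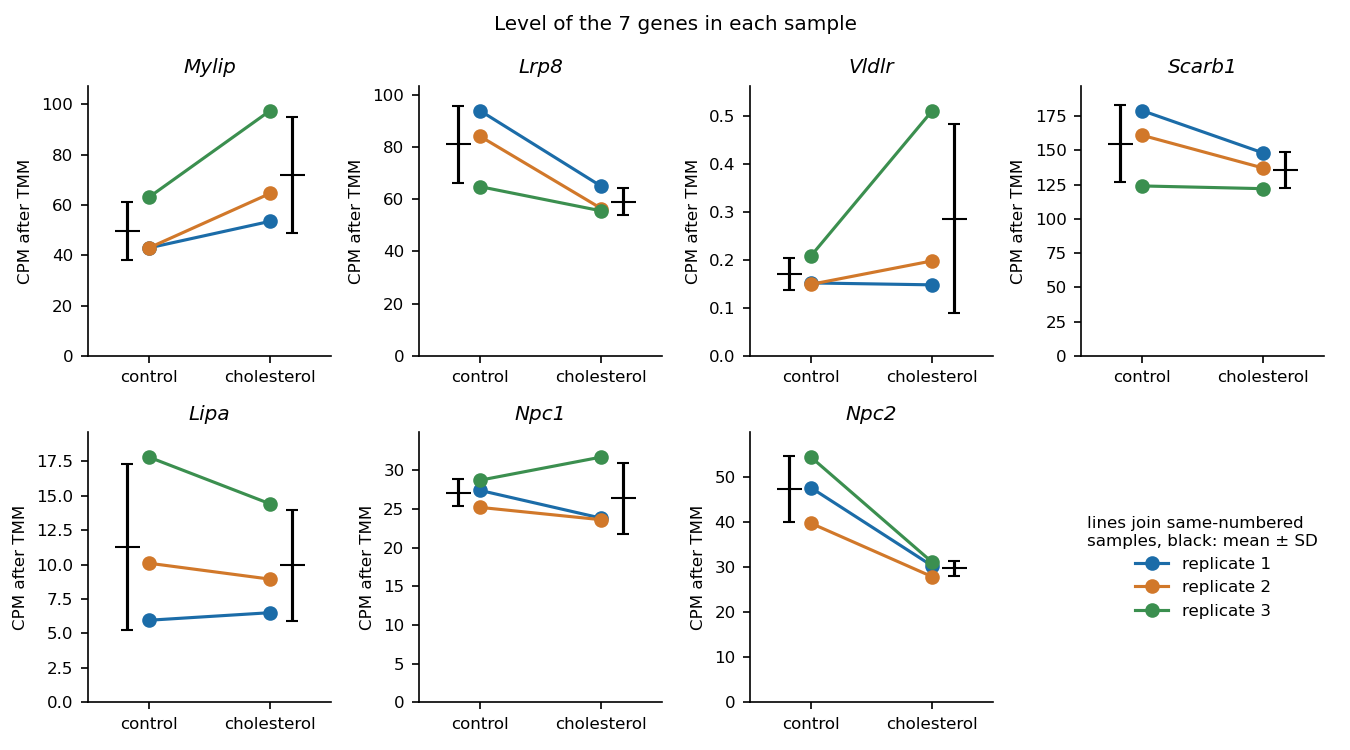
Level of each gene in CPM in the 3 control and 3 cholesterol samples, with lines joining samples of the same number and black marks for the group mean ± SD. Each vertical axis starts at 0; the Npc2 groups do not overlap, and the Mylip lines all climb while the groups overlap.

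Mylip (chr13:45389742-45411940) was read at 42.9, 42.9 and 63 CPM in control samples 1, 2 and 3, and at 53.5, 64.6 and 97.5 CPM in cholesterol samples 1, 2 and 3. Sample 3 was the highest in both groups, and control sample 3 exceeded cholesterol sample 1, so the groups overlapped. Group means were 49.6 ± 11.6 and 71.8 ± 22.9 CPM (SD, n = 3 each). Within same-numbered pairs the gene was higher with cholesterol by 0.32, 0.59 and 0.63 on the log2 scale, and 19.9% of all genes were higher in all 3 pairs. The log2 fold change was 0.53 ± 0.26 (SE) with an edgeR adjusted p of 1.0 on condition alone. In the paired edgeR model it was 0.52 ± 0.06, a 1.43-fold rise, with an adjusted p of 4.84e-05. The balanced design makes the size nearly the same in both models, and its error was smaller in the paired one. The unpaired value was 0.25 without cholesterol sample 3. The call held in paired edgeR without any one number, with adjusted p-values from 2.47e-10 to 0.00288. These fits have fewer samples from which to estimate the error, so a p-value below that of the full fit is not stronger evidence.

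Lrp8 (chr4:107802200-107876840) was read at 93.9, 84.1 and 64.8 CPM in the control samples and at 64.9, 56.4 and 55.5 CPM in the cholesterol samples. The groups met at one point only, where control sample 3 lay just under cholesterol sample 1. All 3 pairs were lower with cholesterol, with log2 differences of -0.53, -0.58 and -0.22, and 20.1% of all genes were lower in all 3 pairs. The log2 fold change was -0.46 ± 0.15 in edgeR on condition alone, with an unadjusted p of 0.0198 and an adjusted p of 1.0. The paired edgeR model gave -0.45 ± 0.06 with an adjusted p of 0.000654, a level of 0.732 of the control. Without the samples of any one number the paired adjusted p ran from 3.72e-20 to 0.0126. With so few samples left to estimate the error, the smallest of these is not stronger evidence than the full fit.

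Scarb1 (chr5:125277087-125341094) was the most highly expressed member, at 179, 161 and 124 CPM in the control samples and 148, 137 and 122 CPM in the cholesterol samples. The third pair was nearly level, with a log2 difference of -0.02, whereas the first and second differed by -0.27 and -0.23. On condition alone the edgeR log2 fold change was -0.19 ± 0.15 with an adjusted p of 1.0, and the paired model gave -0.18 ± 0.05 with an adjusted p of 0.0413. The unpaired value was -0.06 without control sample 1, -0.11 without cholesterol sample 3 and -0.32 without control sample 3. The paired call did not hold in every fit. DESeq2 with the block gave an adjusted p of 0.196, and paired edgeR gave 0.34 without the samples numbered 1 and 0.27 without those numbered 2.

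The ratio of Scarb1 to Lrp8, taken within each sample on normalised levels per transcript length (FPKM), varied little between controls. It was 5.57, 5.53 and 5.55 in control samples 1, 2 and 3, although Scarb1 itself ran from 46.64 to 69.13 FPKM across them. The cholesterol samples had ratios of 6.72, 7.07 and 6.36, all above the controls. This was 1 of 4 ratios computed, and a two-sided exact permutation test of 3 against 3 samples cannot give a p below 0.1.

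Vldlr (chr19:27216480-27254231) was close to the detection limit, with deposited counts of 2.93, 3 and 3.96 in the controls and 3.23, 4 and 9.98 in the cholesterol samples. Cholesterol sample 3 held more of its reads than both other cholesterol samples together. The summed rounded counts of 10 and 17 give a depth-scaled ratio of 1.71 with a 95% exact interval of 0.74 to 4.18, which covers counting error only, so no difference was detectable at this depth.

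**Figure D2:**
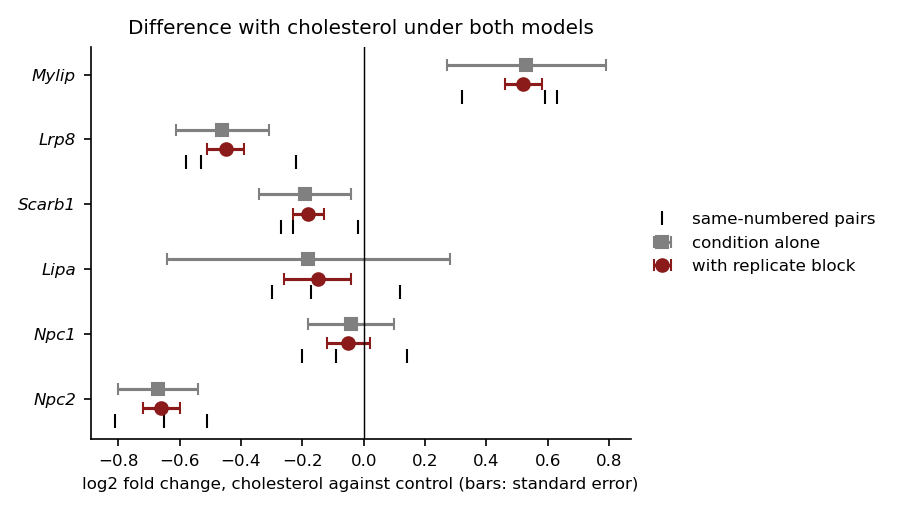
Log2 fold change with its standard error for the 6 tested genes, from edgeR on condition alone (squares) and with the replicate block (circles), with ticks for the 3 same-numbered pairs. The bars shorten with the block, while the balanced design keeps the points nearly in place. Mylip lies at 0.52 and Npc2 at -0.66 in the paired model.

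Among the lysosomal members, Npc2 (chr12:84754559-84773112) showed the largest difference. It was read at 47.7, 39.8 and 54.5 CPM in the control samples and at 30.3, 27.9 and 31.1 CPM in the cholesterol samples. Every cholesterol sample lay below every control, which was so for 4.28% of all genes, and 3.72% had all cholesterol samples above all controls. Mean levels were 47.3 ± 7.33 and 29.8 ± 1.65 CPM (SD, n = 3 each). The log2 fold change was -0.67 ± 0.13 in edgeR on condition alone, with an unadjusted p of 0.0015 and an adjusted p of 1.0. DESeq2 on condition alone gave an adjusted p of 0.00674. With the block the edgeR log2 fold change was -0.66 ± 0.06 and the adjusted p 2.04e-06, so that the transcript fell by 36.8%. The call held in paired edgeR without any one number, with adjusted p-values from 2.57e-13 to 0.00022. The same limit applies to these smaller fits, whose lowest p-value is not stronger evidence than the full fit.

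Npc1 (chr18:12189694-12236506), the membrane partner of NPC2, was read at 27.4, 25.2 and 28.7 CPM in the controls and at 23.8, 23.6 and 31.7 CPM with cholesterol. The first and second pairs were lower with cholesterol and the third was higher. Its log2 fold change was -0.04 ± 0.14 on condition alone, and -0.05 ± 0.07 in the paired edgeR model with an adjusted p of 0.8. The exons of Npc1 share 601 bases with those of Rmc1 and Gm15956, and whether counting used the read strand is not given in the sources used here, so some reads could belong to either side.

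The ratio of Npc2 to Npc1 in FPKM was 2.77, 2.52 and 3.05 in the controls and 2.05, 1.9 and 1.56 in the cholesterol samples. The groups did not overlap, and the smallest two-sided exact permutation p for 3 against 3 is again 0.1. The transcript of the soluble carrier exceeded that of the membrane protein per length in every sample.

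Lipa (chr19:34492316-34527474), which encodes lysosomal acid lipase, differed far more between sample numbers than between groups. It was read at 5.96, 10.1 and 17.8 CPM in the controls and at 6.51, 8.94 and 14.4 CPM with cholesterol. In both groups sample 1 was the lowest and sample 3 the highest. The log2 fold change of -0.18 ± 0.46 in edgeR on condition alone was small beside the control spread of 0.79 (SD of log2 CPM, n = 3). With the block it was -0.15 ± 0.11 with an adjusted p of 0.479. Without control sample 3 the unpaired value was 0.31, and without cholesterol sample 1 it was 0.05.

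Markers of other cell types were read in all samples, among them those of macrophages, which surround erythroblasts in the fetal liver and express lysosomal genes strongly. The summed level of 12 macrophage markers was 11.6, 31.2 and 98.5 CPM in control samples 1, 2 and 3 and 7.74, 11.2 and 44 CPM in the cholesterol samples. None of the 12 was at 0 in every sample, although Spic and Timd4 stayed at or below 0.204 CPM throughout. Of the 8 markers tested, paired edgeR called 4 lower and 1 higher. Lipa had the same order over the samples of each group as these markers, and their part in its values was not tested. Npc2 and the marker sum were both lower with cholesterol in all 3 pairs and both highest in control sample 3, while Npc2 was lower and the markers higher in control sample 2 than in control sample 1. The part of macrophages in the Npc2 difference was not tested. Summed granulocyte markers were 70.4 to 674 CPM in the controls and 40.5 to 281 CPM with cholesterol, and all 9 were called lower in the paired model. Mast cell and basophil markers (8 genes) ran from 16.1 to 55.9 against 8.63 to 24.6 CPM, and all 5 tested were called lower. Hepatocyte markers (8) ran from 125 to 362 against 86.7 to 303. On condition alone 6 of them were higher and 2 lower, and the paired model called none. Endothelial markers (6) ran from 1.57 to 6.07 against 1.23 to 3.02, with none called. Megakaryocyte markers (6) ran from 61.4 to 76.4 against 58.7 to 66, with 1 called lower and none higher.

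**Figure D3:**
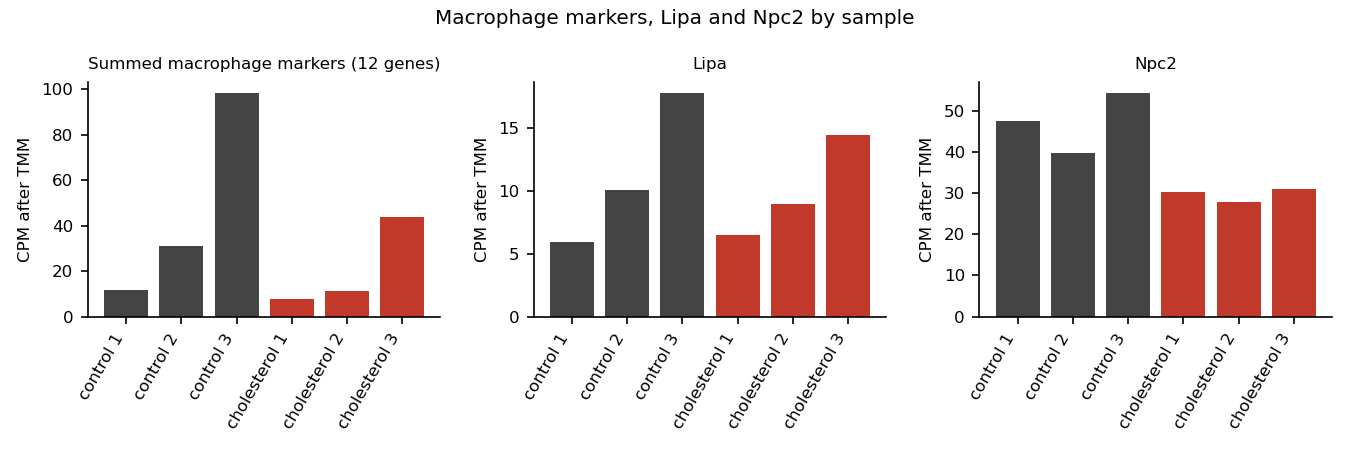
Summed level of 12 macrophage markers, Lipa and Npc2 in CPM in each of the 6 samples, on axes that start at 0, with controls in grey and cholesterol samples in red. Marker sums peak at 98.5 in control sample 3, Lipa follows the same order over samples within each group, and the Npc2 bars separate by treatment.

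Ordered by mean FPKM over the 6 samples, Scarb1 stood at 56.8, Mylip at 19.9, Npc2 at 11.5, Lrp8 at 9.4, Npc1 at 5.01, Lipa at 3.48 and Vldlr at 0.035. Scarb1 lay above Mylip in all samples with no overlap of their ranges, as did Lrp8 above Npc1 and Lipa above Vldlr. The ranges of Mylip and Npc2 overlapped, as did those of Npc2 and Lrp8 and of Npc1 and Lipa, although Npc2 exceeded Lrp8 within each of the 6 samples. The only reversal between Mylip and Npc2 was in 1 sample, and likewise between Npc1 and Lipa. The ratio of Mylip, which acts on receptors, to Lrp8 was 1.12, 1.24 and 2.38 in the controls and 2.03, 2.79 and 4.28 with cholesterol. Here the groups overlapped, while the ratio was higher with cholesterol in all 3 same-numbered pairs. The ratio of Lipa to Npc1 ran from 0.38 to 1.09 in the controls and from 0.484 to 0.797 with cholesterol.

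**Figure D4:**
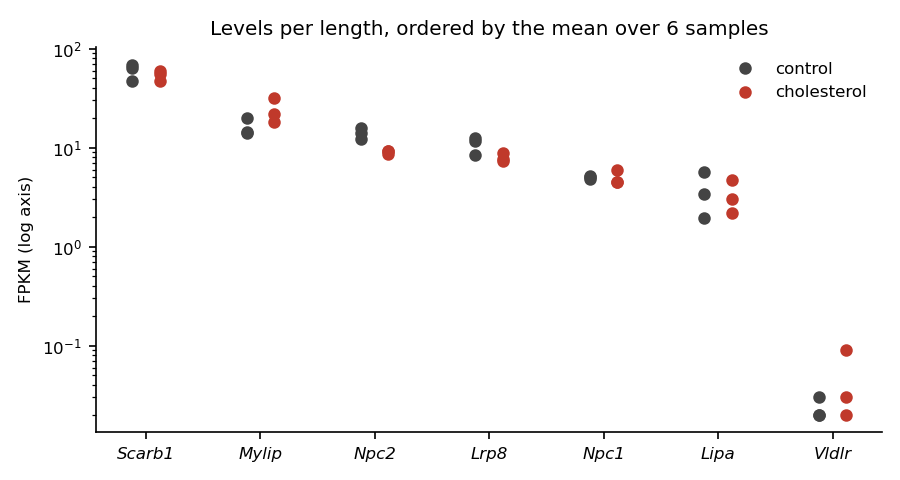
FPKM of the 7 genes in each sample on a log axis, ordered by the mean over 6 samples, with controls in grey and cholesterol samples in red. Levels run from 69.13 for Scarb1 down to 0.02 for Vldlr.

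Other genes of the route showed how far these differences extended beyond the members. Of 19 other uptake receptors, 14 were tested, with a median log2 fold change of -0.49 on condition alone against 0.01 for all genes tested. This median was 0.11 without control sample 3, -0.30 and -0.32 without cholesterol samples 2 and 1, and -0.74 and -0.78 without control sample 1 and cholesterol sample 3. It was -0.14 with limma on log2(FPKM + 1). In the paired edgeR model 4 of the 14 fell and none rose. They were Sorl1, a sorting receptor, from 6.76 ± 6.16 to 2.89 ± 2.01 CPM (adjusted p 0.000552), the macrophage scavenger receptor Msr1, from 5.43 ± 6.38 to 2.94 ± 3.32 CPM (0.0113), the macrophage glycoprotein Cd68, from 18 ± 14.3 to 11.7 ± 6.54 CPM (0.0135), and the scavenger receptor Stab1, from 4.39 ± 3.72 to 2.49 ± 1.79 CPM (0.0307). DESeq2 with the block called Sorl1 alone of these (adjusted p 0.0211) and gave 0.267 for Msr1, 0.156 for Cd68 and 0.393 for Stab1. All 4 are known from macrophages or other myeloid cells. Of the 8 macrophage markers tested, the paired model called 4 lower and 1 higher. It called lower 9 of 9 granulocyte markers and 5 of 5 mast cell and basophil markers, against 5.2% of all genes. Markers of macrophages and other myeloid cells were read in these samples sorted for TER119. The part of such cells in the receptor values was not tested. Lrp10 was near 85.8 ± 2.79 CPM in controls and 91.7 ± 3.66 CPM with cholesterol (adjusted p 0.295), and the oxidised lipoprotein receptor Olr1 was at 1.07 ± 0.479 and 0.554 ± 0.365 CPM (0.146).

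Receptor chaperones, adaptors and endocytic factors moved little. The median log2 fold change of the 29 tested was -0.05. It was -0.02 without control sample 1 or control sample 2 and -0.03 without cholesterol sample 2. With limma it was -0.01 on both log2(FPKM + 1) and log2(FPKM + 0.1). The paired model called 1 lower, the endocytic adaptor Dab2, from 9.03 ± 6.88 to 4.41 ± 3.58 CPM with an adjusted p of 0.000154. Its groups overlapped, at 3.99 to 16.9 CPM in the controls and 2.22 to 8.54 CPM with cholesterol. The part of other cell types in the Dab2 values was not tested. The clathrin assembly factor Picalm was at 1330 ± 38.4 and 1240 ± 27.7 CPM, with groups that did not overlap and a paired adjusted p of 0.142. Ccdc93, a subunit of the receptor recycling complex, was at 10.9 ± 1.61 and 12.5 ± 0.185 CPM (0.266).

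None of the 14 ubiquitination genes was called by edgeR or DESeq2, and none had an unadjusted p under 0.05 in edgeR on condition alone. Ube2d1, an E2 enzyme with which MYLIP works, was low at 1.61 ± 0.628 CPM in controls and 0.882 ± 0.0415 CPM with cholesterol (paired adjusted p 0.144). The deubiquitinase Stambp had an adjusted p of 0.344 and the ESCRT subunit Vps28 of 0.409.

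In late endosomal cholesterol handling, 28 of 29 listed genes were tested, with a median log2 fold change of -0.05 that was 0.02 without control sample 3, -0.03 without cholesterol sample 1, -0.08 without control sample 1 and -0.11 without cholesterol sample 3. Paired edgeR called 1 of them. Tmem97, an NPC1-binding membrane protein, fell from 29.2 ± 13.8 to 12.4 ± 5.2 CPM, a log2 fold change of -1.23 ± 0.08 in the paired model with an adjusted p of 4.55e-09. On condition alone its groups overlapped and the edgeR adjusted p was 1.0. The lysosomal transcription factor Tfe3 was at 42.3 ± 2.36 and 39.4 ± 2.25 CPM (0.367), and the annexin Anxa6 at 9.01 ± 5.88 and 6.04 ± 1.32 CPM (0.282).

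Sets of genes known to answer to sterols give a scale for the members. Of 9 tested LXR-activated genes 6 had a log2 fold change above 0 and 3 below, with a median of 0.29, which ran from 0.20 without cholesterol sample 3 to 0.52 without control sample 1. The paired model called 3 higher and none lower. The sterol exporter Abcg1 was the one gene called on condition alone, rising 16.6-fold from 5.89 ± 1.35 to 97.8 ± 3.54 CPM with an edgeR adjusted p of 0.00292. The exporter Abca1 went from 1.64 ± 1.56 to 3.43 ± 2.43 CPM (paired adjusted p 0.0174) and the acyltransferase Lpcat3 from 77.1 ± 9.21 to 92.3 ± 8.12 CPM (0.00208). DESeq2 with the block did not call Abca1 (adjusted p 0.0948). The desaturase Scd1 was at 6.77 ± 4.24 and 11.2 ± 1.36 CPM (0.642). The log2 fold change of Mylip, 0.52, stood between those of Lpcat3, 0.26, and Abca1, 1.16, in the same fit.

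The 24 SREBP2-activated genes had a median log2 fold change of -1.07, with 23 below 0. Paired edgeR called 11 of them lower, DESeq2 on condition alone 13, and edgeR on condition alone none, where 21 had an unadjusted p under 0.05. The sterol dehydrogenase Hsd17b7 fell from 31 ± 6.2 to 13.4 ± 2.11 CPM (paired adjusted p 1.51e-08). Srebf2, encoding the factor itself, was at 364 ± 67.4 and 144 ± 13.3 CPM (paired 0.133, DESeq2 3.84e-13) and the synthase Hmgcs1 at 44.9 ± 18 and 10.8 ± 1.04 CPM (paired 0.0504, DESeq2 2.75e-07). The log2 fold changes of the lower members on condition alone were closer to 0 than this median, with Npc2 at -0.67, Lrp8 at -0.46 and Scarb1 at -0.19.

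**Figure D5:**
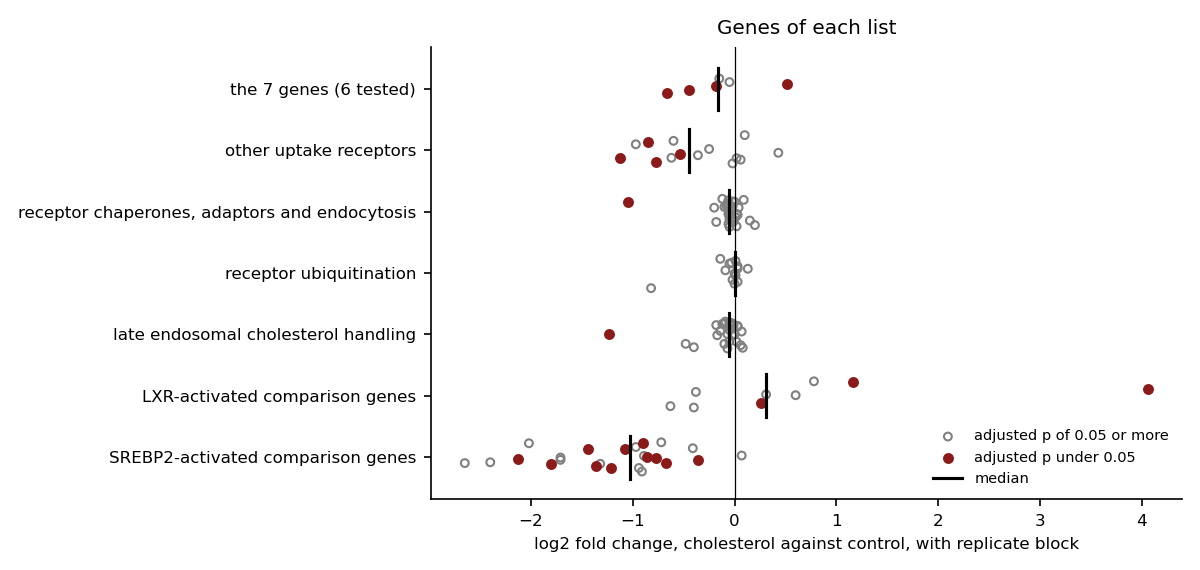
Log2 fold change with the replicate block for every tested gene of each list, filled where the adjusted p is under 0.05, with a bar at the list's median and vertical scatter for visibility only. The 6 tested members spread from -0.66 to 0.52. The medians of adaptors, ubiquitination and late endosomal genes lie near 0, with Dab2 at -1.05, Ube2d1 at -0.82 and Tmem97 at -1.23 farther out than any member.

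Genes whose log2 CPM ran most like each member over the 6 samples were ranked by Pearson correlation among 8334 genes with a mean of at least 5 CPM. These points share the treatment and the sample numbers, so the values describe these samples only. Mylip ran with Brd2 (r = 0.998), a chromatin reader, then with Tsc1 and Crat. Lrp8 ran with Pcyt2 (r = 0.993), an enzyme of phosphatidylethanolamine synthesis, with the sterol synthesis gene Nsdhl and with Xrcc3. Scarb1 ran with Reln (r = 0.996), which encodes reelin, then with Dym and Igsf8. Npc2 ran with Pkig, Apeh and Tuba1c, and Npc1 with Prkab1, Zfp101 and Gnb2. Lipa ran with Car13, Sp110 and Chfr, and 336 genes reached an r of 0.95 with it, against 87 for Scarb1, 56 for Mylip, 40 for Lrp8, 26 for Npc1 and 21 for Npc2.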

How the data were processed

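Total RNA from 6 samples was enriched for mRNA by oligo(dT) and read as single-end 50-base reads on a DNBSEQ instrument by the authors. In its methods the study names the platform as BGIseq500. Per the labels, their processing notes name HISAT2 2.0.4, Bowtie2 2.2.5, RSEM 1.2.12, DESeq2 1.4.5 and the build GRCm38.p6, with no role given. The authors deposited expected counts per gene (estimated counts), made from the aligned reads, of which 27.9 to 29.5% per sample were not whole and were rounded here. The second deposited table has no unit in its header, and its values fit FPKM made by the authors from these counts and the transcript lengths.

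Genes were kept by edgeR's filterByExpr (minimum count 10, total 15), which left 11277 of 17463, 954 being 0 in every sample, and scaled by TMM. Condition was tested by edgeR 4.0.16 (quasi-likelihood, R 4.3.3) with Benjamini-Hochberg adjustment over all tested genes, at a threshold of 0.05. CPM are after TMM. The replicate number was also fitted as a block. Deviations from group means of samples numbered 1, 2 and 3 correlated across genes at 0.729, 0.348 and 0.825 between groups. Each sample correlated best with its own number (for cholesterol sample 2 only just, with 0.346 against control sample 1). The numbers were therefore taken to pair the samples, a choice that rests on the same values that the paired model tests. No pair of libraries agreed within sampling noise (smallest chi-square per degree of freedom 8.2). The study speaks of 3 independent experiments for the figure that uses these data, but the labels do not tie samples to animals or cultures, so p-values measure the spread between these samples, which may be technical. Alternatives were DESeq2 1.42.0, its size factors, other filters, limma 3.58.1 on log2(FPKM + 1) or log2(FPKM + 0.1), and samples left out.

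All 7 members, up to 5 genes of each further list by smallest p or call, and the 3 genes most like each member were named. Msr1 falls outside this limit and was named after its values were seen, to account for a count of calls. A gene that the rule selects is not reported here. The listed genes Dab1 and Abcg5 were not matched, and Vps35l was matched under the spelling Vsp35l. The members and lists were chosen with earlier results of these data known. Intervals and floors cover counting error only. Promoter sequences are RefSeq's, and 5 members had windows.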

Additional observations from a re-analysis of the deposited data

How the results depend on the processing

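The counts of called genes depended on the pairing. Against 1 gene higher and 0 lower in edgeR on condition alone, the replicate block gave 186 and 586, DESeq2 gave 3 and 28, DESeq2 with the block (chosen after seeing the data, as were the other combined fits) 41 and 248, and the block with no filter 368 and 829. Paired fits without the samples numbered 1, 2 or 3 gave 118, 67 and 210 higher and 703, 229 and 516 lower. Leaving out single samples unpaired gave 1 in every case higher and from 0 to 7 lower, the 7 without control sample 3 and 1 without cholesterol sample 3. Of the members, 0 were called on condition alone, 4 with the block, 1 by DESeq2, 3 by DESeq2 with the block, 4 with the block and no filter, and 3, 3 and 4 in paired fits without numbers 1, 2 and 3. The cause was not tested. Mylip, Lrp8, Scarb1 and Npc2 kept their direction under all 18 alternatives each, from 0.25 to 0.75, -0.59 to -0.33, -0.32 to -0.06 and -0.78 to -0.56. The small value of Lipa turned positive without control sample 3 (0.31) and without cholesterol sample 1 (0.05), over a range of -0.54 to 0.31 with single samples left out. That of Npc1 did so without control sample 3 (0.01), cholesterol sample 1 (0.03), cholesterol sample 2 (0.03) and in the paired fit without number 1 (0.03), over a range of -0.19 to 0.03. Among the members, only Vldlr had too few counts to be tested.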
